A study of Brassica napus with 12 samples.

Results

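Subtilisin-like proteases, or subtilases (SBT), were followed in apical meristems of rapeseed (Brassica napus). They were taken as the genes whose best protein match in the deposited table is named as a subtilisin-like protease or subtilase. Among the 100919 genes listed, 97 carried such a name, and the 56 with a mean level of 0.2 CPM (read counts scaled to the size of the library) or more over the 12 libraries are described here. The members were thus chosen by name and by their level over all libraries, and levels are given as a description. The members fall under 11 protein names in the subfamilies SBT1 (20 genes), SBT2 (16), SBT3 (11), SBT4 (1), SBT5 (4) and SBT6 (4). Rapeseed carries an A and a C subgenome, and many genes exist as near-identical pairs, one in each. 26 members lie on A chromosomes, 29 on C chromosomes and 1 on an unplaced scaffold.

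Plant subtilases are serine proteases made as inactive precursors whose own prodomain is cut away on the route to the cell surface. Most are secreted into the cell wall, where they mature peptide hormones and cut other wall proteins, and their recognition sites in the substrate differ between members. In Arabidopsis single members are known to act on stomatal density, on the embryonic cuticle, on seed coat mucilage and on immune priming, and SBT6.1 works inside the Golgi apparatus.

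The samples form 4 groups of 3 libraries each. SX3 is labelled a natural mutant with the genotype mutant. ZS11 is labelled wild type. Slike (genotype label mutant) and Zlike (genotype label WT) are plants of a second backcross (BC2) between these lines, which differ in the architecture of the inflorescence and the plant. All plants came from an experimental station and had no treatment, and whole apical meristems were taken as floral primordia began to form. The series title gives the name BnaSBT to a gene behind these architectures, and the labels do not say which copy it is. They also do not say whether the libraries of a group came from separate plants, so the spread behind every p-value may be technical only.

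Total counts were between 13445924 and 17778731 per library, and a count of 0 in a library allows up to 3 counts, or 0.169 to 0.223 CPM; this floor covers counting error only. The C09 copy of STM, which marks the shoot meristem, averaged 91.2 CPM in SX3, 134 in ZS11, 63.5 in Slike and 75.7 in Zlike. The A09 copy averaged 55.6 CPM in SX3, 134 in ZS11, 55.5 in Slike and 67.4 in Zlike. Copies of WUS and CLV3 averaged under 2 CPM in every group. Of 4 tested copies of STM, WUS and CLV3, 1 was higher in SX3 than ZS11 and 2 lower. Of 6 tested in the backcross, 2 were higher in Slike than Zlike and 2 lower. The lower ones were these STM copies, and the higher ones were WUS copies. Floral organ identity genes moved with both comparisons, with 20 of 20 tested copies higher in SX3 than ZS11 and 21 of 21 higher in Slike than Zlike. Their 23 copies summed to 184 to 189 CPM in SX3, 6.15 to 8.67 in ZS11, 382 to 389.8 in Slike and 78.4 to 81.1 in Zlike. A SEP2 copy was at 0 in ZS11, and an AG copy was at 0 in all 4 groups. Green tissue genes (32 copies) summed to 1769.6 to 1809 CPM in SX3 and 4582 to 4594 in ZS11 (6 of 28 tested higher, 22 lower), and to 2813 to 2845 in Slike and 2361 to 2440.0 in Zlike (23 of 29 higher, 2 lower). Epidermal genes (33 copies) summed to 1106 to 1142 CPM in SX3 and 703 to 716 in ZS11 (21 of 24 higher, 2 lower), and to 1542 to 1571 in Slike and 1124 to 1160.2 in Zlike (21 of 25 higher, 1 lower). Anther and tapetum genes (33 copies) summed to 161 to 169 CPM in SX3 and 201 to 204 in ZS11. Of 10 tested there, 6 were higher in SX3 and 3 lower. In the backcross these genes summed to 278 to 290.0 CPM in Slike and 209 to 213 in Zlike. Of 23 tested, 19 were higher in Slike and 2 lower. Of the 33 copies, 4 were at 0 in Slike and 16 in Zlike, beside 15 in SX3 and 15 in ZS11. Beside these counts, 33.4% of all genes tested were called higher in SX3 than ZS11 and 35.9% lower. In Slike against Zlike the shares were 13.8% higher and 13.4% lower. The part of these tissues in the results below was not tested. In bulk tissue, fewer cells of a type and less RNA per cell cannot be told apart.

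Most of the family's transcripts came from 4 protein names. As a share of the members' summed FPKM, which counts reads per length, SBT1.7 held 38.2% in SX3, 32.0% in ZS11, 33.4% in Slike and 31.4% in Zlike. SBT1.6 held 29.2% in SX3, 26.6% in ZS11, 30.3% in Slike and 32.5% in Zlike, and SBT2.5 held 17.0% in SX3, 18.2% in ZS11, 17.8% in Slike and 20.4% in Zlike. SBT3.3 held 11.7% in SX3 but 21.0% in ZS11, and 14.7% in Slike against 12.9% in Zlike. The other 7 names with members made up the rest. The SBT3.3 share leans on short models, such as BnaC02G0261100ZS described below, since FPKM is divided by length. In summed CPM SBT3.3 held 63.7 in SX3, 422 in ZS11, 93.6 in Slike and 101 in Zlike. By that measure the order of Slike and Zlike was reversed. In summed CPM the 56 genes reached 2267 ± 12.9 in SX3 against 3348 ± 22.5 in ZS11 (SD, n = 3), and 2531 ± 17.2 in Slike against 2635 ± 14.1 in Zlike. Both pairs of groups were apart in every library. Without the SBT3.3 copy BnaA03G0461400ZS the sums were 2254 ± 13.6 in SX3, 2994 ± 18.4 in ZS11, 2502 ± 17.1 in Slike and 2588 ± 12.7 in Zlike.

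**Figure D1:**
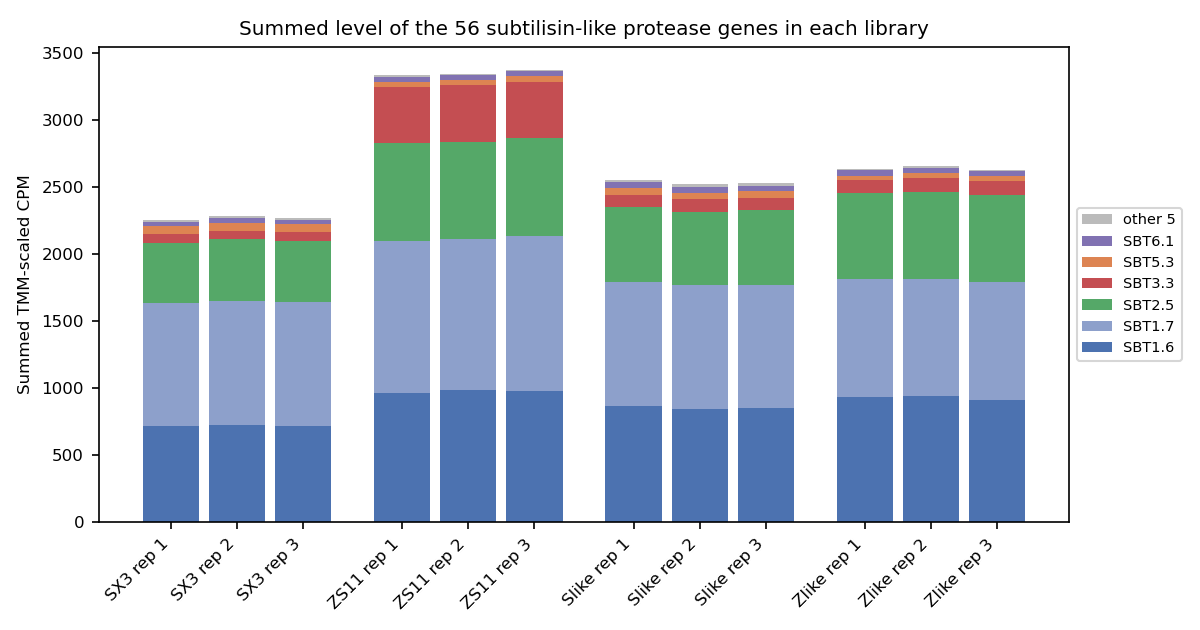
Summed TMM-scaled CPM of the 56 subtilisin-like protease genes in each of the 12 libraries, stacked by protein name; the 5 least abundant names are drawn together. Segments of one colour can be compared between libraries, not with other colours, since CPM is not divided by length. The SX3 libraries sum to 2254 to 2280.3 and the ZS11 libraries to 3329 to 3373, and the SBT3.3 segment is the one that is widest in ZS11 relative to the rest.

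SX3 was first compared with ZS11. Of the 48 members that passed the filter on low counts, 24 were lower in SX3 and 13 higher, and 11 were not called (edgeR quasi-likelihood test, adjusted p under 0.05 over all 50035 genes tested). Called members were thus 77.1% of those tested, where 69.3% of all genes tested were called, so that a call as such does not set the family apart. Lower calls made up 50.0% of the tested members and 35.9% of all genes tested, and higher calls 27.1% of members and 33.4% of all genes. The median log2 fold change of the tested members was -0.21, beside -0.0079 for all genes tested. At least 2-fold, 6 members were lower (15.8% of all genes tested) and 7 were higher (10.5% of all genes). The CPM values of the 2 groups did not overlap for 37 of the 48 tested members (77.1%) and for 70.8% of all genes tested. A gene near 0 in one group passes the filter only through the other group, and each of the 7 members at least 2-fold higher averaged between 0.0818 and 2.71 CPM in ZS11. Most called differences were modest, with 24 called members under 2-fold and a median of 1.33-fold among them.

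Slike was then compared with Zlike. Here 13 of 45 tested members were higher in Slike, 14 were lower and 18 were not called, or 60.0% called where 27.2% of the 49526 genes tested were called (13.8% higher and 13.4% lower). The 21 called members under 2-fold had a median of 1.17-fold, and several such calls were lost with another tool or without 1 library. At least 2-fold, 6 members were higher and 0 lower, where 3.6% and 0.61% of all genes tested passed in those directions. Here too a gene near 0 in Zlike passes the filter only through Slike. Each of these 6 members averaged 2.25 CPM or less in Zlike, and BnaC03G0473300ZS and BnaC09G0092800ZS were near the floor there. For the members the median log2 fold change was -0.0066, beside -0.00051 for all genes. The groups did not overlap for 28 of the 45 tested members (62.2%) and for 37.9% of all genes tested. 6 members were called higher in both comparisons, 11 lower in both and 4 lower in SX3 but higher in Slike. The reverse, higher in SX3 and lower in Slike, was found for 0 members. The shares of all genes with such joint or opposite calls were not counted. These counts therefore only describe the members and do not set the family apart. The difference of the 2 fold changes was tested by itself as an interaction over all 12 libraries. It was positive for 22 of 51 tested members and negative for 7, where 53.3% of all genes tested were called, 30.1% positive and 23.2% negative.

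**Figure D2:**
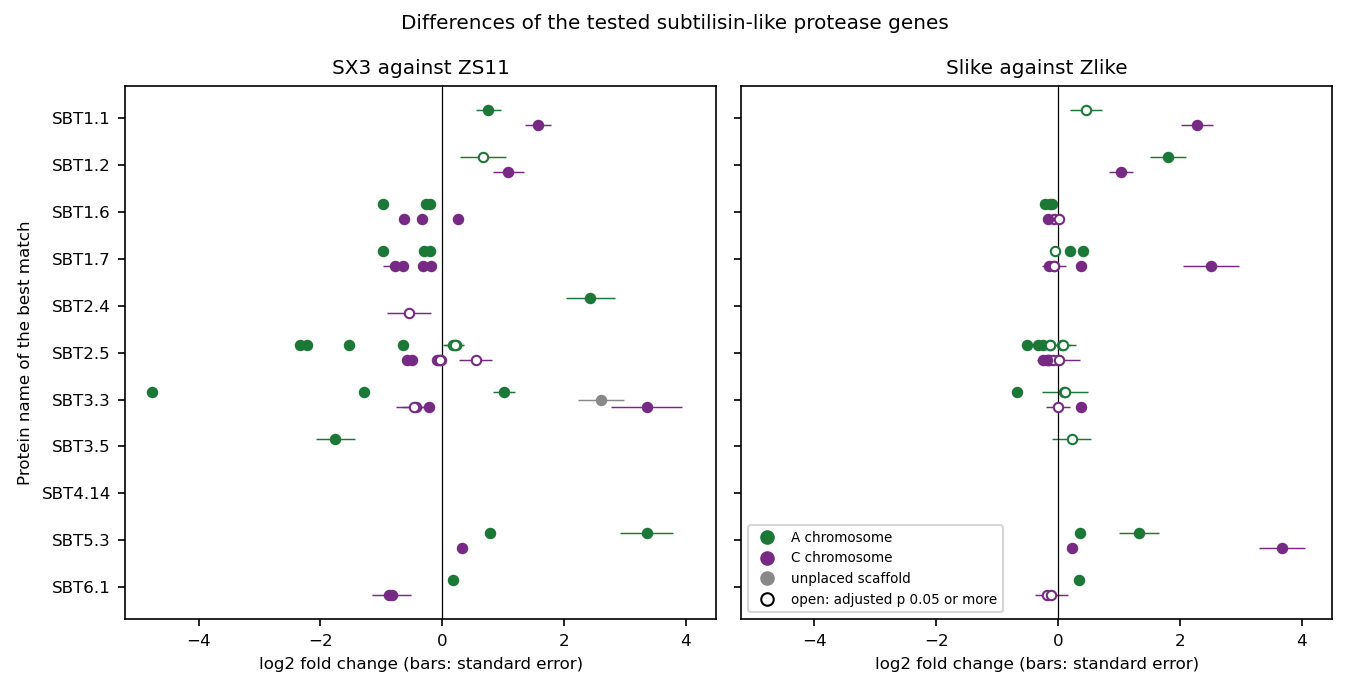
Log2 fold change (SE as bars) of each tested member in SX3 against ZS11 (left, 48 genes) and Slike against Zlike (right, 45 genes), by protein name. Colours give the subgenome and open circles members that were not called. SBT1.7 copies lie left of 0 in SX3 against ZS11, SBT5.3 copies lie right of 0 in both panels, and the farthest point on the left is an SBT3.3 copy at -4.77.

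SBT1.7, known in Arabidopsis for releasing mucilage from the seed coat, was the most abundant name by FPKM in SX3, ZS11 and Slike, and its tested copies were all lower in SX3. 7 of its 9 members were tested between SX3 and ZS11, and 7 were called lower, where 35.9% of all genes tested were. The copy BnaA07G0055700ZS (A07, 10417716 to 10420571, plus strand) had the highest level per length of the whole SBT1 subfamily, 111 FPKM over all libraries. It lay at 309, 306 and 309 CPM in SX3 and 349, 349 and 369 CPM in ZS11, and at 258, 266 and 260.4 CPM in Slike and 279, 263 and 269 CPM in Zlike. All SX3 libraries were below all ZS11 libraries, while Slike and Zlike overlapped. The log2 fold change was -0.20 ± 0.024 in SX3 (SE, edgeR adjusted p = 1.33e-13) and -0.046 ± 0.028 in Slike (adjusted p = 0.232, not called). Its counterpart by level on C07, BnaC07G0082100ZS, averaged 292 ± 3.13 CPM in SX3 against 331 ± 5.33 in ZS11 (SD, n = 3 each; log2 fold change -0.18 ± 0.024, edgeR adjusted p = 3.45e-11). In both of these copies Zlike was also below ZS11, with log2 fold changes of -0.40 and -0.39 (edgeR adjusted p = 3.97e-29 and 1.77e-28).

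SBT1.7 also held 3 of the 4 members that went opposite ways in the 2 comparisons. BnaA10G0088200ZS (A10, 13881853 to 13884668, plus strand) lay at 106, 107 and 108 CPM in SX3 against 131, 133 and 132 CPM in ZS11. In the backcross it lay at 164, 161 and 159 CPM in Slike against 121, 119 and 124 CPM in Zlike. Neither pair of groups overlapped, and Slike had the highest values of all 4 groups. The log2 fold changes were -0.30 ± 0.033 in SX3 and 0.41 ± 0.034 in Slike (edgeR adjusted p = 8.63e-15 and 1.54e-20).

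The C09 copy BnaC09G0338800ZS (C09, 42555573 to 42558343, plus strand) showed the same order. It lay at 83.9, 87.5 and 89.7 CPM in SX3 against 112, 103 and 110.1 CPM in ZS11, and at 133, 129 and 133 CPM in Slike against 104, 97.7 and 104 CPM in Zlike. No library of one group reached into its partner group, and Slike was again the highest. On the log2 scale the copy changed by -0.31 ± 0.037 in SX3 and 0.37 ± 0.037 in Slike (edgeR adjusted p = 1.33e-13 and 5.32e-16). BnaA05G0411200ZS (A05, 39715709 to 39718284, plus strand) lay at 28.6, 28.4 and 28.7 CPM in SX3 and 56.2, 55.8 and 55.1 CPM in ZS11, and at 31.1, 28.6 and 25.6 CPM in Slike and 25.8, 23.9 and 24.6 CPM in Zlike. ZS11 stood alone above the other 3 groups, and the Slike and Zlike libraries overlapped. Its log2 fold change was -0.96 ± 0.055 in SX3 (edgeR adjusted p = 1.10e-35) and 0.20 ± 0.071 in Slike (adjusted p = 0.0261), and the second call was lost when any 1 of 4 libraries was left out (adjusted p up to 0.242 without Slike replicate 1) and with DESeq2 (0.138).

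The fourth opposite member, BnaC02G0261100ZS (C02, 24523108 to 24524164, minus strand), is named SBT3.3. The deposited length of its model, on which FPKM rests, is only 387 bases, and it had the highest level per length of the SBT3 subfamily, 79.4 FPKM. It lay at 27.8, 27.6 and 28.4 CPM in SX3 and 33.8, 34.3 and 28.9 CPM in ZS11, and at 33.8, 35.8 and 36.7 CPM in Slike and 24.5, 27.3 and 30.4 CPM in Zlike. The groups of each pair were close but did not overlap. edgeR gave log2 fold changes of -0.21 ± 0.064 in SX3 and 0.37 ± 0.066 in Slike (edgeR adjusted p = 0.00208 and 1.78e-06).

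**Figure D3:**
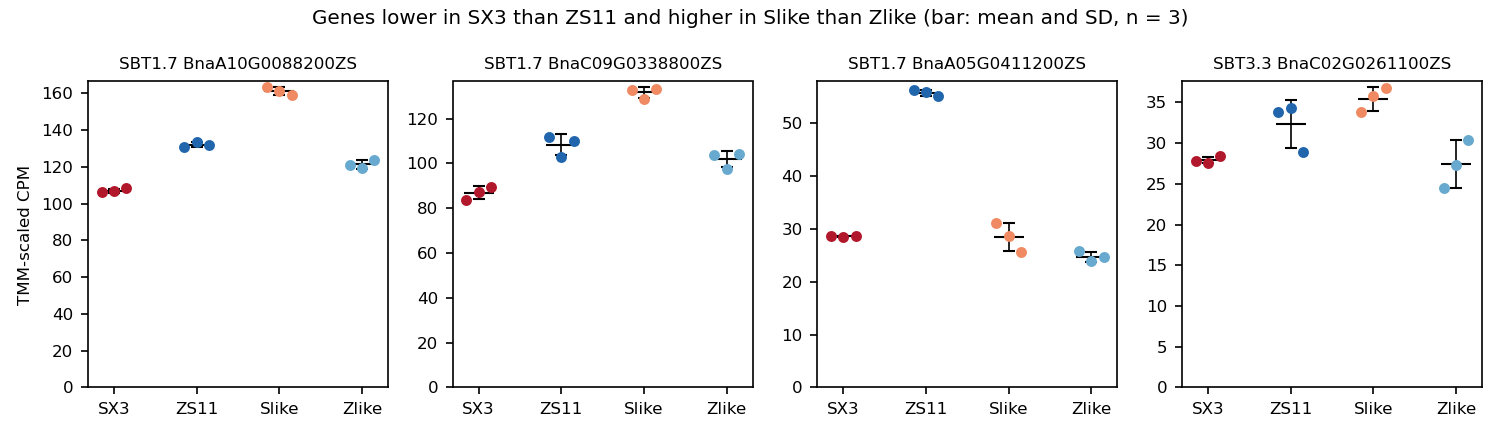
TMM-scaled CPM in each library (points) with mean and SD (bars, n = 3) of the 4 members called lower in SX3 than ZS11 and higher in Slike than Zlike. In the SBT1.7 copies on A10 and C09 Slike lies above the other 3 groups, and in the copy on A05 ZS11 does.

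One SBT1.7 copy of low level was higher in Slike. BnaC09G0092800ZS (C09, 6246564 to 6248956, plus strand) lay at 1.61, 1.26 and 1.15 CPM in Slike against 0.276, 0.191 and 0.215 CPM in Zlike. Slike was clear of Zlike, and Zlike was near the floor. Its log2 fold change was 2.51 ± 0.47 (SE, edgeR adjusted p = 5.17e-06); in SX3 and ZS11 this copy averaged 0.541 and 0.297 CPM and was too low to be tested. It lies 37419 bases from BnaC09G0092600ZS, also SBT1.7, which was among the members nearest the level limit. That neighbour averaged 0.801 ± 0.227 CPM in Slike and 0.108 ± 0.132 in Zlike (SD, n = 3) and was not tested.

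SBT1.6 copies were mostly lower in SX3, with 5 of 6 tested copies called lower and 1 higher. Of all genes tested there, 35.9% were lower and 33.4% higher. BnaA05G0408500ZS (A05, 39578213 to 39581056, plus strand) had the largest fall of them, with 138 ± 5.05 CPM in SX3 against 272 ± 3.81 in ZS11 (SD, n = 3 each; log2 fold change -0.98 ± 0.029, edgeR adjusted p = 1.90e-66). In the backcross it averaged 211 ± 3.49 CPM in Slike and 232 ± 4.25 in Zlike, a log2 fold change of -0.14 ± 0.029 (edgeR adjusted p = 6.36e-05). BnaC07G0523700ZS was the exception, higher in SX3 by 0.26 ± 0.038 (edgeR adjusted p = 6.01e-10). In Slike, 4 of 6 tested SBT1.6 copies were lower than in Zlike and 0 higher. Of all genes tested there, 13.4% were lower and 13.8% higher. For BnaA03G0547200ZS (log2 fold change -0.11 ± 0.041, edgeR adjusted p = 0.0428) the call was lost with DESeq2 (adjusted p = 0.171). It was also lost without Zlike replicate 1 or 2 or any Slike replicate (edgeR, adjusted p up to 0.172).

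SBT1.1 and SBT1.2 were scarce and moved the other way. In Arabidopsis SBT1.1 cuts the precursor of the growth peptide phytosulfokine, and SBT1.2 is SDD1, which limits the density of stomata. The SBT1.1 copy BnaC05G0003800ZS (C05, 380114 to 382929, minus strand) lay at 4.30, 5.13 and 3.85 CPM in SX3 and 1.63, 1.36 and 1.41 CPM in ZS11, and at 3.59, 3.92 and 4.79 CPM in Slike and 0.829, 1.02 and 0.645 CPM in Zlike. SX3 and Slike libraries were each well above their partner group. The log2 fold changes were 1.57 ± 0.22 in SX3 and 2.28 ± 0.26 in Slike (edgeR adjusted p = 8.60e-11 and 4.35e-13). Its A10 counterpart BnaA10G0001700ZS was higher in SX3 by 0.76 ± 0.20 (edgeR adjusted p = 0.000492) and was not called in Slike (0.46 ± 0.26, adjusted p = 0.202).

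Of SBT1.2, the C05 copy BnaC05G0025000ZS (C05, 1498649 to 1500982, minus strand) lay at 2.81, 2.67 and 2.73 CPM in SX3 and 1.22, 1.29 and 1.34 CPM in ZS11, and at 4.98, 4.97 and 3.91 CPM in Slike and 1.93, 2.23 and 2.58 CPM in Zlike. Every SX3 library exceeded every ZS11 library, and every Slike library exceeded all others. On the log2 scale the copy changed by 1.09 ± 0.25 in SX3 and 1.04 ± 0.20 in Slike (edgeR adjusted p = 5.69e-05 and 9.35e-06). The A10 copy BnaA10G0023700ZS (A10, 1314897 to 1317240, minus strand) lay at 3.07, 2.73 and 2.56 CPM in Slike against 0.345, 1.08 and 0.932 CPM in Zlike. These groups were clearly apart, with a log2 fold change of 1.80 ± 0.30 (edgeR adjusted p = 2.35e-07). In SX3 it averaged 0.911 ± 0.196 CPM against 0.589 ± 0.208 in ZS11, which was not called (adjusted p = 0.112). Beside these SBT1.1 and SBT1.2 copies, epidermal and floral marker genes were also mostly higher in SX3 and in Slike, as given above. Green tissue genes differed between the comparisons. In SX3 22 of 28 tested were lower and 6 higher, and in Slike 23 of 29 were higher and 2 lower. A link between these copies and any tissue was not tested.

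SBT2.5 had the most members of any name, and in SX3 its A sum fell further than its C sum. 4 of its 7 A copies were called lower in SX3 and 1 higher, while 2 of 7 C copies were lower and 0 higher. Of all genes tested on A chromosomes 40.5% were lower and 32.6% higher. On C chromosomes 31.8% were lower and 34.2% higher. The call counts of so few copies are given as a description. The higher copy was BnaA07G0014200ZS (log2 fold change 0.23 ± 0.086), whose call was lost with DESeq2 (adjusted p = 0.060) and without ZS11 replicate 2 (edgeR, 0.0505), ZS11 replicate 3 (0.0726) or SX3 replicate 1 (0.0898). Summed over copies, the A chromosomes held 123 ± 0.920 CPM in SX3 against 338 ± 1.76 in ZS11 (SD, n = 3 each; log2 fold change -1.44 ± 0.026, edgeR adjusted p = 6.04e-97 over sums by name and subgenome). The C chromosomes held 331 ± 5.13 CPM in SX3 against 389.5 ± 1.49 in ZS11 (log2 fold change -0.22 ± 0.022, edgeR adjusted p = 3.77e-18). Of all such sums tested, 71.3% were called, 34.7% higher and 36.6% lower in SX3. A copies made up 27.2% ± 0.216 of SBT2.5 CPM in SX3, against 46.5% ± 0.194 in ZS11, and 44.8% ± 0.40 in Slike against 47.7% ± 0.392 in Zlike. The 4 groups did not overlap in that share, and SX3 lay far below the other 3; the difference between the 2 fold changes was not tested. Reads of near-identical copies may have been divided between the subgenomes in counting.

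At least 2-fold lower among the A copies were 3 genes. BnaA03G0514500ZS (A03, 28796307 to 28800638, plus strand), the SBT2 copy with the highest level per length (26.1 FPKM), lay at 21.8, 23.4 and 22.4 CPM in SX3 against 114, 116 and 110.0 CPM in ZS11. In the backcross it lay at 80.4, 78.0 and 82.4 CPM in Slike against 117, 110.0 and 115 CPM in Zlike. SX3 was far below the rest, Slike was intermediate, and Zlike overlapped with ZS11. edgeR gave log2 fold changes of -2.33 ± 0.048 in SX3 and -0.50 ± 0.039 in Slike (edgeR adjusted p = 2.80e-84 and 5.93e-22).

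BnaA01G0109900ZS (A01, 6373638 to 6377362, minus strand) followed a similar course. It lay at 16.8, 18.1 and 16.4 CPM in SX3 against 78.1, 80.5 and 81.2 CPM in ZS11, and at 45.1, 47.0 and 46.03 CPM in Slike against 59.8, 55.5 and 59.4 CPM in Zlike. The 4 groups were apart from each other in every library. Its log2 fold changes were -2.23 ± 0.056 in SX3 and -0.34 ± 0.051 in Slike (edgeR adjusted p = 1.14e-73 and 2.60e-08). Of the 20 tested genes nearest to this copy, 17 were called lower in SX3 and 3 higher, with a median log2 fold change of -0.94. Around BnaA03G0514500ZS 11 of 20 were lower and 5 higher (median -0.30). Around BnaA09G0120500ZS, described next, 13 of 20 were lower and 2 higher (median -0.43). Of all genes tested on A chromosomes, 40.5% were lower and 32.6% higher.

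BnaA09G0120500ZS (A09, 7233225 to 7237403, minus strand) lay at 24.2, 26.1 and 26.6 CPM in SX3 and 72.8, 72.6 and 76.6 CPM in ZS11, and at 65.1, 59.7 and 63.0 CPM in Slike and 63.9, 73.6 and 68.0 CPM in Zlike. SX3 was far below the other 3 groups, and Slike and Zlike overlapped. The log2 fold change was -1.52 ± 0.053 in SX3 (edgeR adjusted p = 5.07e-58) and -0.13 ± 0.047 in Slike (adjusted p = 0.0258), and the call in Slike was lost when any 1 of 3 libraries was left out (adjusted p up to 0.32 without Zlike replicate 2) and with DESeq2 (0.162). The C copies called lower in SX3 were BnaC07G0493400ZS (-0.58 ± 0.040) and BnaC09G0125800ZS (-0.49 ± 0.045). In Slike, 8 of 14 SBT2.5 copies were lower than in Zlike, 4 on each subgenome, and 0 were higher, where 13.4% and 13.8% of all genes tested were. With DESeq2, 4 of these 8 stayed called, 3 on A and 1 on C chromosomes, and the other 4 calls were each also lost when any 1 of 3 libraries was left out.

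SBT2.4, in Arabidopsis ALE1, a protease needed for the cuticle of the embryo, was expressed at low level. Its A03 copy BnaA03G0589600ZS (A03, 43624266 to 43629707, minus strand) lay at 1.48, 1.52 and 1.60 CPM in SX3 against 0.290, 0.259 and 0.283 CPM in ZS11. The SX3 libraries were close together and far above ZS11, whose values were near the floor. Its log2 fold change was 2.43 ± 0.40 (edgeR adjusted p = 2.99e-08). The C04 copy BnaC04G0242400ZS averaged 0.712 ± 0.322 CPM in SX3 against 1.03 ± 0.0885 in ZS11 and was not called (adjusted p = 0.176). In Slike the A03 copy averaged 0.772 ± 0.183 CPM against 0.450 ± 0.115 in Zlike and was too low to be tested.

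**Figure D4:**
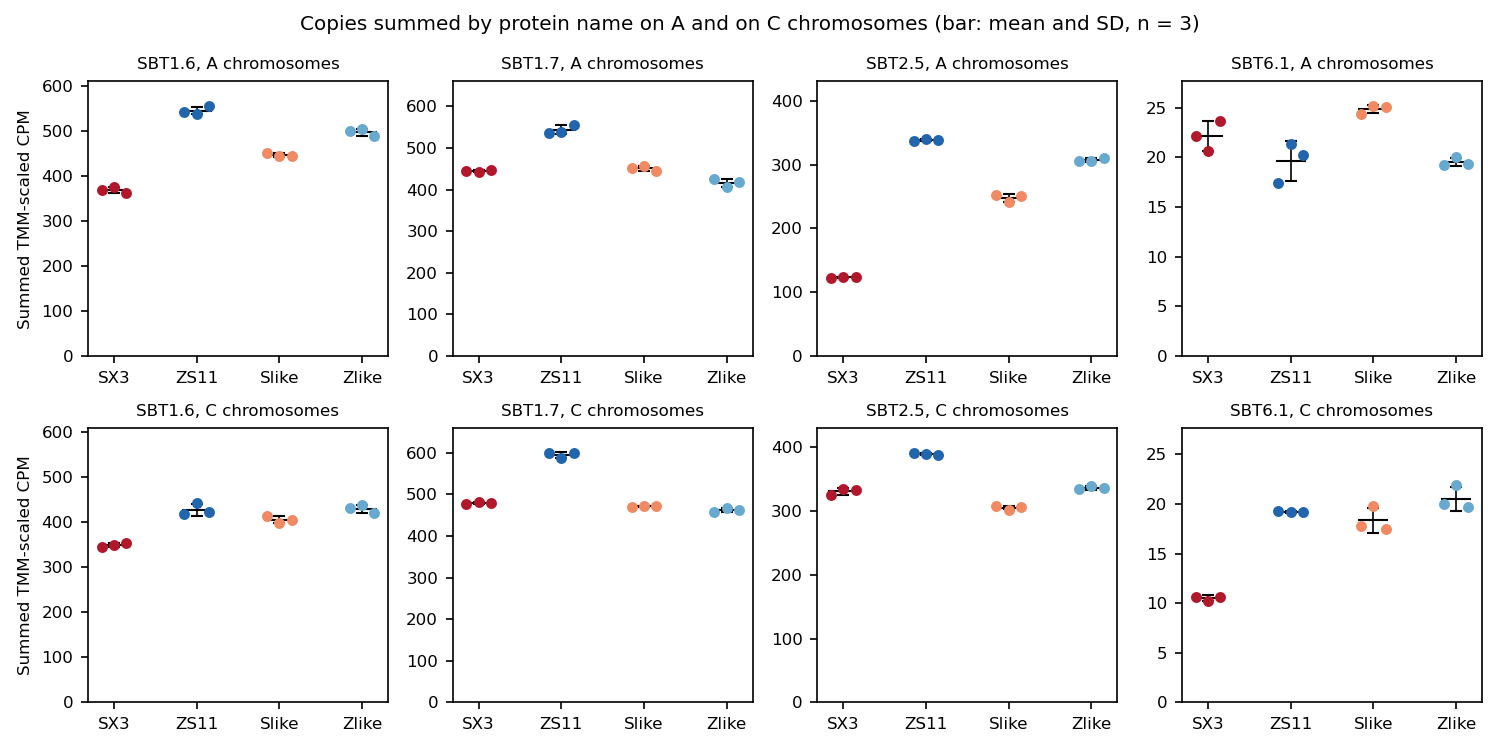
Counts of all copies with the same protein name, summed on A (top) and C chromosomes (bottom) and given as TMM-scaled CPM in each library (points) with mean and SD (bars, n = 3). In SBT2.5 the A sum of SX3 is 123 against 338 in ZS11, while the C sums are 331 and 389.5. In SBT6.1 the C sum is the lower one in SX3, 10.5 against 19.2 in ZS11.

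SBT3.3, known in Arabidopsis from immune priming, held the largest difference among the members tested, by p and by fold, in SX3 against ZS11. BnaA03G0461400ZS (A03, 25205677 to 25209355, minus strand) lay at 13.3, 12.0 and 13.7 CPM in SX3 against 352, 352 and 359.8 CPM in ZS11. In the backcross it lay at 29.1, 28.8 and 29.4 CPM in Slike against 44.8, 48.4 and 46.4 CPM in Zlike. The 4 groups did not overlap, ZS11 was far above the rest, and SX3 was the lowest. The log2 fold change was -4.77 ± 0.042 in SX3 (edgeR adjusted p = 4.16e-131) and -0.68 ± 0.059 in Slike (adjusted p = 6.39e-19). Zlike, which has the same genotype label as ZS11, was lower than ZS11 (log2 fold change -2.93 ± 0.036, edgeR adjusted p = 4.16e-106).

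The next SBT3.3 gene on A03, BnaA03G0461200ZS (A03, 25192064 to 25195032, minus strand), moved the other way, and 10645 bases separate the pair. It lay at 6.96, 5.71 and 4.21 CPM in SX3 against 3.25, 2.33 and 2.55 CPM in ZS11, and at 0.951, 1.05 and 0.877 CPM in Slike against 1.38, 0.446 and 0.860 CPM in Zlike. SX3 was above ZS11 in every library, and both backcross classes were below both parents and overlapped. Its log2 fold change was 1.02 ± 0.18 in SX3 (edgeR adjusted p = 2.08e-07) and 0.11 ± 0.38 in Slike (adjusted p = 0.868, not called). Of the 20 tested genes nearest to BnaA03G0461400ZS, 11 were called lower in SX3 and 5 higher, with a median of -0.44, and 2 were at least 4-fold lower. The called shares of all genes tested on A chromosomes were 40.5% lower and 32.6% higher.

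A second pair of SBT3.3 copies lies 9990 bases apart on C07. BnaC07G0437300ZS (C07, 54092918 to 54100172, minus strand) lay at 0.963, 1.01 and 0.889 CPM in SX3 against 0.116, 0.129 and 0 CPM in ZS11. ZS11 was at or below the floor in every library, and the backcross classes averaged 0.0917 CPM in Slike and 0.181 in Zlike. The log2 fold change was 3.36 ± 0.58 (edgeR adjusted p = 1.11e-07). Its neighbour BnaC07G0437400ZS averaged 1.15 ± 0.417 CPM in SX3 and 1.58 ± 0.344 in ZS11 (not called, adjusted p = 0.157), but 0.281 ± 0.121 in Slike and 0.0920 ± 0.0445 in Zlike. Zlike was lower than ZS11 (log2 fold change -4.02 ± 0.54, edgeR adjusted p = 1.64e-10).

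The remaining SBT3.3 copies named here are short models. The scaffold copy Bnascaffold0636G0000200ZS (deposited length 804 bases) lay at 2.07, 1.59 and 1.96 CPM in SX3 against 0.290, 0.259 and 0.354 CPM in ZS11. The groups were clearly apart (log2 fold change 2.62 ± 0.38, edgeR adjusted p = 5.14e-10). BnaA02G0196500ZS (A02, 12239867 to 12240849, minus strand; 529 bases) lay at 11.7, 12.1 and 9.72 CPM in SX3 against 25.8, 27.3 and 28.2 CPM in ZS11, and at 23.3, 25.3 and 23.4 CPM in Slike against 20.1, 23.5 and 23.9 CPM in Zlike. SX3 was below the other 3 groups, and Slike and Zlike overlapped. Its log2 fold change was -1.29 ± 0.085 in SX3 (edgeR adjusted p = 6.08e-30) and 0.093 ± 0.076 in Slike (adjusted p = 0.398).

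SBT3.5, which in Arabidopsis roots processes a pectin methylesterase, had 2 members of low level. BnaA09G0388400ZS (A09, 44821171 to 44860776, minus strand) lay at 0.518, 0.578 and 0.652 CPM in SX3 against 2.38, 1.75 and 1.84 CPM in ZS11, and at 1.32, 1.47 and 1.42 CPM in Slike against 1.38, 1.15 and 1.08 CPM in Zlike. SX3 was the lowest group, and the backcross classes overlapped between the parents. The log2 fold change was -1.75 ± 0.32 in SX3 (edgeR adjusted p = 7.39e-07). The A03 copy BnaA03G0491800ZS held 3 counts over the 3 SX3 libraries and 28 over the ZS11 libraries, a ratio of ZS11 to SX3 of 8.82 with an exact 95% counting interval of 2.72 to 45.3; it was too low to be tested.

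**Figure D5:**
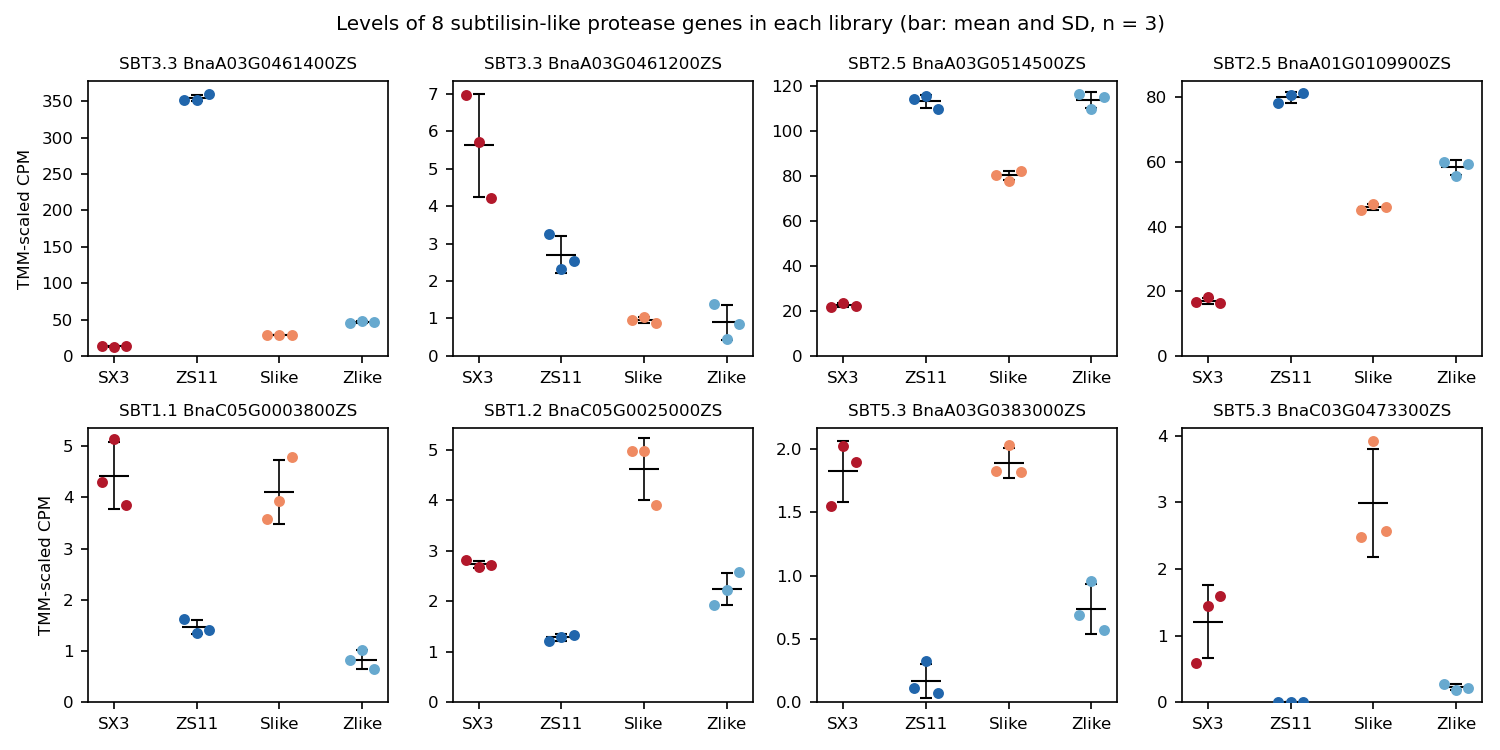
TMM-scaled CPM in each library (points) with mean and SD (bars, n = 3) of 8 members; every axis starts at 0. SX3 is the lowest group in the SBT3.3 copy BnaA03G0461400ZS and in both SBT2.5 copies, while SX3 and Slike lie above ZS11 and Zlike in the SBT1.1, SBT1.2 and SBT5.3 copies.

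SBT4 was represented by a single member, BnaA09G0002500ZS (A09, 207564 to 210768, plus strand), named SBT4.14, in Arabidopsis the xylem serine protease XSP1. It lay at 0.592, 0.794 and 0.770 CPM in SX3 and 0.348, 0.323 and 0.354 CPM in ZS11, and at 0.878, 0.630 and 0.607 CPM in Slike and 0.345, 0.573 and 0.287 CPM in Zlike. Each library of SX3 and of Slike was above its partner group, at levels too low for the filter, so that it was not tested in either comparison. Vascular marker genes (78 copies) summed to 269.8 to 276 CPM in SX3 and 300.5 to 315 in ZS11, and to 229.5 to 234 in Slike and 257 to 259 in Zlike. Of 47 tested between SX3 and ZS11, 20 were higher in SX3 and 14 lower, with a median log2 fold change of 0.31. The shares of all genes tested there were 33.4% higher and 35.9% lower. Of 43 tested between Slike and Zlike, 4 were higher in Slike and 10 lower, with a median of -0.14. There the shares of all genes tested were 13.8% higher and 13.4% lower.

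SBT5.3 is AIR3, first found in auxin-treated Arabidopsis roots, where it takes part in the emergence of lateral roots. Of its tested copies, 3 of 3 were called higher in SX3 and 4 of 4 in Slike. Among all genes tested, 33.4% were called higher in SX3 and 13.8% in Slike. BnaA03G0383000ZS in ZS11 and BnaC03G0473300ZS in Zlike were near the floor. In those comparisons they passed the filter only through the group where they were high. BnaC09G0235400ZS (C09, 21562877 to 21568709, minus strand), the copy with the highest level per length of SBT5 (6.19 FPKM), lay at 26.1, 30.1 and 26.7 CPM in SX3 and 22.9, 21.1 and 21.8 CPM in ZS11, and at 22.0, 20.3 and 22.1 CPM in Slike and 16.7, 18.5 and 19.9 CPM in Zlike. The groups of each pair did not overlap but lay close. The log2 fold changes were 0.33 ± 0.071 in SX3 and 0.23 ± 0.081 in Slike (edgeR adjusted p = 2.13e-05 and 0.0252), and the call in Slike was lost with DESeq2 (adjusted p = 0.132) and when any 1 of 3 libraries was left out (up to 0.178 without Zlike replicate 1). BnaA09G0203600ZS averaged 28.6 ± 0.540 CPM in SX3 against 16.6 ± 1.92 in ZS11, and 22.7 ± 2.20 in Slike against 17.6 ± 0.763 in Zlike (SD, n = 3; log2 fold changes 0.79 ± 0.076 and 0.37 ± 0.081).

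The scarce SBT5.3 copies differed most. BnaA03G0383000ZS (A03, 20588727 to 20594787, plus strand) lay at 1.56, 2.02 and 1.90 CPM in SX3 against 0.116, 0.323 and 0.0707 CPM in ZS11, and at 1.83, 2.03 and 1.82 CPM in Slike against 0.691, 0.956 and 0.573 CPM in Zlike. SX3 and Slike overlapped and lay above both other groups, and ZS11 was the lowest. On the log2 scale the copy changed by 3.36 ± 0.43 in SX3 and 1.33 ± 0.33 in Slike (edgeR adjusted p = 6.07e-12 and 0.000690); without ZS11 replicate 2 the first was 4.14. BnaC03G0473300ZS (C03, 34083282 to 34089770, minus strand) lay at 2.49, 3.92 and 2.56 CPM in Slike against 0.276, 0.191 and 0.215 CPM in Zlike, a log2 fold change of 3.67 ± 0.38 (edgeR adjusted p = 5.92e-15).

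In the parents BnaC03G0473300ZS lay at 0.592, 1.44 and 1.60 CPM in SX3 and had 0 counts in all 3 ZS11 libraries. Against a floor of 3 counts per library it was at least 6.27-fold higher in SX3; it did not pass the filter for a test there. Over the 20 nearest tested genes the median log2 fold change was 0.11 at BnaA03G0383000ZS and 0.054 at BnaC03G0473300ZS in SX3 against ZS11.

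SBT6.1, the site-1 protease of the Golgi apparatus, which in Arabidopsis releases membrane-bound bZIP transcription factors, had 4 members. BnaA03G0084100ZS (A03, 4080241 to 4084768, minus strand) had the highest level per length (6.34 FPKM) and lay at 22.1, 20.7 and 23.7 CPM in SX3 and 17.4, 21.3 and 20.2 CPM in ZS11, and at 24.4, 25.1 and 25.1 CPM in Slike and 19.2, 20.0 and 19.4 CPM in Zlike. SX3 and ZS11 overlapped, while Slike was above Zlike in every library. Its log2 fold change was 0.35 ± 0.076 in Slike (edgeR adjusted p = 0.000104) and 0.18 ± 0.078 in SX3 (adjusted p = 0.0301); the second was not called with DESeq2 (adjusted p = 0.129), without ZS11 replicate 1 (0.358), without SX3 replicate 1 (0.0514) or without SX3 replicate 3 (0.203). The C03 copy BnaC03G0096500ZS averaged 9.46 ± 0.116 CPM in SX3 against 17.4 ± 0.210 in ZS11 (SD, n = 3 each; log2 fold change -0.87 ± 0.097, edgeR adjusted p = 7.88e-15). The A copy held 67.8% ± 1.03 of SBT6.1 CPM in SX3, against 50.5% ± 2.72 in ZS11, and 57.6% ± 1.49 in Slike against 48.8% ± 0.939 in Zlike. The other 2 members, BnaC09G0466900ZS and BnaC09G0467000ZS, are short neighbouring models on C09, 77 bases apart.

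Summing all copies of a name reduces the effect of reads divided between copies. These sums, also those by subgenome, hold all rows of a name, including rows under the 0.2 CPM limit. SBT4.14, whose only member was too low to be tested, could be tested as such a sum. Of the 11 names tested as sums, 5 were higher and 6 lower in SX3 than ZS11, where 71.5% of all name sums were called, 34.5% higher and 37.0% lower. Higher were SBT1.1 (log2 fold change 1.15 ± 0.15), SBT1.2 (1.00 ± 0.22), SBT2.4 (0.81 ± 0.26), SBT4.14 (1.01 ± 0.38) and SBT5.3 (0.64 ± 0.051). Lower were SBT3.3 (-2.69 ± 0.028), SBT3.5 (-1.94 ± 0.30), SBT2.5 (-0.65 ± 0.018), SBT1.6 (-0.41 ± 0.016), SBT1.7 (-0.27 ± 0.015) and SBT6.1 (-0.21 ± 0.059). In Slike against Zlike 4 sums were higher and 3 lower, where 28.9% of all name sums were called, 15.2% higher and 13.7% lower. SBT1.1 (1.38 ± 0.18), SBT1.2 (1.29 ± 0.16) and SBT5.3 (0.42 ± 0.055) were higher in Slike as in SX3. SBT1.7 was higher in Slike (0.077 ± 0.018, edgeR adjusted p = 0.000351) although lower in SX3. SBT2.5 (-0.21 ± 0.020), SBT1.6 (-0.12 ± 0.018) and SBT3.3 (-0.11 ± 0.038) were lower in both. The difference of the comparisons was positive for 6 name sums and negative for 1, where 56.9% of all name sums were called, 31.6% positive and 25.3% negative.

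Members were spread over 15 chromosomes, with 9 on A03, 8 on C07, 7 on C09, 6 on C05 and 5 on A09. Of 23 tested A copies 13 were lower in SX3 and 7 higher, and of 24 tested C copies 11 were lower and 5 higher. Of all genes tested on A chromosomes 40.5% were called lower in SX3 and 32.6% higher, and of those on C chromosomes 31.8% were lower and 34.2% higher. All 6 members that were at least 2-fold lower in SX3 lie on A chromosomes, and 0 tested C copies fell that far. At least 2-fold higher were 3 A copies, 3 C copies and the scaffold copy. Calls of at least 2-fold lower made up 18.6% of all A genes tested and 13.3% of all C genes tested, and calls of at least 2-fold higher 11.6% of A and 9.25% of C genes.

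The backcross classes were set beside the parents for the 13 members called at least 2-fold apart between SX3 and ZS11. Slike lay between the parents in 10 of them, above both in 2 and below both in 1, and Zlike lay between in 9, above both in 1 and below both in 3. By the difference in mean CPM, Slike was nearer ZS11 in 8 and nearer SX3 in 5, and Zlike nearer ZS11 in 10 and nearer SX3 in 3. These comparisons share the parental libraries and are given without a test. Zlike itself differed from ZS11 in 30 of 51 tested members, 25 lower and 5 higher, where 22.9% of all genes tested were lower and 23.1% higher.

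The level limit passed through a run of barely expressed copies. Just above it lay BnaC05G0288200ZS (SBT3.3, mean 0.201 CPM) and BnaC09G0092600ZS (SBT1.7, 0.283 CPM). Just below it lay BnaA09G0010800ZS (SBT4.14, 0.192 CPM) and BnaC02G0367300ZS (SBT3.3, 0.191 CPM). Of the 41 rows under the limit 20 had 0 counts in all 12 libraries, and all 4 rows named SBT5.4 were under it. SBT3.3 had the most rows under the limit, with 9 of its 32 rows kept.

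Proteases of the same superfamily under other names also differed. Tripeptidyl peptidase 2, a large cytosolic peptidase, had a copy on C07 (BnaC07G0434300ZS) at 125 ± 4.70 CPM in SX3 against 50.9 ± 2.20 in ZS11 (SD, n = 3; log2 fold change 1.30), and at 96.6 ± 3.77 in Slike against 52.8 ± 1.14 in Zlike (0.87). The A03 copy BnaA03G0458400ZS was lower, with 18.8 CPM in SX3 against 62.9 in ZS11 (log2 fold change -1.74) and 40.0 in Slike against 50.0 in Zlike (-0.32). CRSP, which in Arabidopsis leaves cuts the precursor of the stomatal peptide EPF2, was higher in both comparisons. Its A06 copy BnaA06G0141900ZS averaged 5.66 CPM in SX3 against 3.58 in ZS11 (log2 fold change 0.68) and 2.35 in Slike against 0.558 in Zlike (2.03). The C05 copy BnaC05G0171200ZS was higher by 0.37 in SX3 and by 1.07 in Slike. Of the 7 tested genes of these names, 3 were higher and 3 lower in SX3, where 33.4% and 35.9% of all genes tested were. In Slike 5 were higher and 1 lower, where 13.8% and 13.4% of all genes tested were.

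Candidate partners of subtilases were counted from lists. Of 99 tested genes for peptide precursors of the EPF, phytosulfokine, CLE, IDA and RALF kinds, 31 were higher and 25 lower in SX3. Of 99 tested in the backcross, 7 were higher and 19 lower in Slike. The shares of all genes tested were 33.4% higher and 35.9% lower in SX3, and 13.8% higher and 13.4% lower in Slike. EPFL6 on A04 (BnaA04G0196100ZS), a stem growth peptide of the EPF family, averaged 5.28 CPM in SX3 against 48.2 in ZS11 and 19.1 in Slike against 28.4 in Zlike (log2 fold changes -3.17 and -0.57). CLE46 on A10 (BnaA10G0148400ZS) was also lower in both, with log2 fold changes of -2.47 in SX3 and -0.57 in Slike. Among the precursors higher in SX3, RALFL22 on C03 (BnaC03G0358300ZS) had a log2 fold change of 2.58 and EPFL1 on A02 (BnaA02G0035800ZS) of 2.20. EPF2 on A09 (BnaA09G0378400ZS), which limits entry into the stomatal lineage, was higher in Slike at 3.96 CPM against 0.976 in Zlike (log2 fold change 2.02).

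Of receptors for such peptides, 21 of 65 tested genes were higher and 24 lower in SX3, and 12 of 66 higher and 8 lower in Slike. ERL2 on C09 (BnaC09G0574000ZS), a receptor kinase of EPF peptides, was higher in SX3 (log2 fold change 1.20) and HSL1 on C03 (BnaC03G0652800ZS) lower (-1.41). Copies of TMM, a stomatal receptor protein, went both ways in Slike, with BnaA07G0224900ZS at 2.11 and BnaC04G0036500ZS at -0.39. Of pectin methylesterases and their inhibitors, wall enzymes that include known subtilase substrates, 21 of 66 tested genes were higher and 37 lower in SX3, and 10 of 63 higher and 13 lower in Slike. PME12 on A03 (BnaA03G0237200ZS) averaged 17.7 CPM in SX3 against 2.42 in ZS11 (log2 fold change 2.87), and PME47 on C09 (BnaC09G0596400ZS) averaged 20.0 CPM in SX3 against 93.2 in ZS11 (-2.22). In the backcross another PME47 copy, BnaC03G0022400ZS, averaged 7.78 CPM in Slike against 2.66 in Zlike (log2 fold change 1.55). Among all genes tested, 33.4% were called higher and 35.9% lower in SX3, and 13.8% higher and 13.4% lower in Slike. The list genes named are examples with small p in edgeR's test, all at adjusted p under 0.05. Median log2 fold changes in SX3 were 0.10 for precursors, 0.0027 for receptors and -0.39 for the pectin list, beside -0.0079 for all genes tested, and in Slike -0.11, 0.038 and -0.039 beside -0.00051.

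Of the members, 9 are listed in the authors' deposited table of differences between the parents, 5 marked up and 4 marked down. A mark of up was given to 8155 genes in the authors' deposited table, and all 8155 averaged fewer CPM in SX3 than in ZS11, so that its marks describe ZS11 relative to SX3. The authors' deposited table for Slike and Zlike lists 4 members, BnaA10G0023700ZS, BnaC03G0473300ZS, BnaC05G0003800ZS and BnaC05G0025000ZS, all marked down and all higher in Slike by the counts. All 9 and all 4 were called by edgeR with the same group higher.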

How the data were processed

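Whole apical meristems were profiled by RNA sequencing in 12 libraries, 3 each of SX3, ZS11, Slike and Zlike, grouped by sample title. The authors deposited raw read counts per gene, in whole numbers and without normalization, and FPKM values, per the file headers. FPKM recomputed from the deposited counts, gene lengths and totals matched all 735842 deposited values above 0 within a relative 1e-09. The submitters' processing notes name fastp, HISAT2 and featureCounts. The tools' versions and settings, strandedness, the handling of multiply mapped reads and the build were not given in the sources used here. Coordinates come from the deposited table. The IDs end in ZS, and if reads were placed on a ZS11 genome, SX3 reads that differ could be lost; this was not tested. The authors' own comparison tables, whose p-values and log2 fold values were not used, served for their direction words.

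Differences in counts were tested with edgeR 4.0.16 under R 4.3.3 (filterByExpr, TMM, two-sided quasi-likelihood test, Benjamini-Hochberg adjustment over all genes kept; called at adjusted p under 0.05). SX3 and ZS11, and Slike and Zlike, were fitted on their own 6 libraries, other contrasts on all 12. Levels are TMM-scaled CPM, in the order of replicates 1, 2 and 3, except the 0.2 CPM limit, which uses total counts. The self-test on simulated data passed. Within each group, every pair of libraries differed beyond sampling noise (chi-square 1.35 to 1.47 per gene). Alternatives were RLE and upper-quartile scaling, no filter, a limit of 1 CPM on the mean level of the members counted, DESeq2 1.42.0, all libraries in 1 fit, a replicate block, sums over copies and leaving out each library. No name in the tables' protein matches need be the exact Arabidopsis counterpart. Members, lists and the rule for naming were chosen with earlier results of these data known. Named with values were, per comparison, up to 8 higher and 8 lower called members with the smallest p that were at least 2-fold apart without overlap, the copy of highest FPKM in each subfamily, members with opposite calls, and those nearest the level limit; other copies are named where their values complete a group. Lists were matched to proteins of Arabidopsis and Brassica; Brassica entries were added, and unrelated proteins with the same symbol removed, after the first matches were seen.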

Additional observations from a re-analysis of the deposited data

Results flagged for a closer look

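In 29 of the 51 members tested the difference between Slike and Zlike was not the difference between SX3 and ZS11: the difference of the log2 fold changes, (Slike minus Zlike) minus (SX3 minus ZS11), passed the edgeR interaction test at an adjusted p under 0.05. Called members were 56.9% of those tested, beside 53.3% of all genes tested, so that a call as such does not set the family apart. The difference was positive in 22 members and negative in 7. Positive calls made up 43.1% of tested members and 30.1% of all genes tested. Negative calls made up 13.7% of members and 23.2% of all genes. The largest positive value was 4.09 for the SBT3.3 copy BnaA03G0461400ZS, which fell by 4.77 in SX3 and by 0.68 in Slike. The SBT2.5 copies had 1.89 for BnaA01G0109900ZS, 1.83 for BnaA03G0514500ZS and 1.39 for BnaA09G0120500ZS. The SBT3.5 copy BnaA09G0388400ZS had 1.98 and the SBT3.3 copy BnaA02G0196500ZS had 1.38. For these 6 copies the fold change was larger between the parents than in the backcross. The 4 members with opposite calls had 1.16 (BnaA05G0411200ZS), 0.71 (BnaA10G0088200ZS), 0.69 (BnaC09G0338800ZS) and 0.59 (BnaC02G0261100ZS). Among the other SBT1.7 copies, BnaC05G0462600ZS had 0.71, BnaC01G0442200ZS 0.49, BnaA07G0055700ZS 0.16 and BnaC07G0082100ZS 0.11. The SBT1.6 copies had 0.84 for BnaA05G0408500ZS, 0.45 for BnaC03G0405000ZS and 0.26 for BnaC05G0459700ZS. Among further SBT2.5 copies the values were 0.41 for BnaC09G0125800ZS, 0.40 for BnaA01G0072900ZS and 0.34 for BnaC07G0493400ZS. The SBT6.1 copy BnaC03G0096500ZS had 0.70 and the SBT3.3 copy BnaC07G0437400ZS 2.01, the last on 12 counts in Slike and 4 in Zlike over 3 libraries each.

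The negative values below -1 were those of the SBT3.3 copy BnaC07G0437300ZS (-4.25), the SBT5.3 copies BnaC03G0473300ZS (-3.53) and BnaA03G0383000ZS (-2.02) and the SBT2.4 copy BnaA03G0589600ZS (-1.67). These 4 averaged 0.277 CPM or less in ZS11, and BnaC03G0473300ZS had 0 counts there, so that its fitted value depends on the prior count and is no bound. ZS11 was also near the floor for BnaC07G0437300ZS, with 0 counts in 1 of its libraries. The other 3 negative values were -0.42 for the SBT5.3 copy BnaA09G0203600ZS, -0.36 for the SBT2.5 copy BnaA07G0014200ZS and -0.25 for the SBT1.6 copy BnaC07G0523700ZS.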

How the results depend on the processing

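In SX3 against ZS11 the members called were 13 higher and 24 lower, and with single libraries left out 12 to 13 higher and 23 to 26 lower. In Slike against Zlike the 13 higher and 14 lower became 11 to 13 and 10 to 14, and the 22 positive and 7 negative differences of the comparisons became 21 to 25 and 6 to 7. Relative to all copies counted singly, sums by protein name gave 5 higher and 6 lower in SX3 and 4 higher and 3 lower in Slike. Their differences of the comparisons were 6 positive and 1 negative. Sums by name and subgenome were an alternative chosen after seeing the data. They gave 9 higher and 10 lower in SX3, and 8 higher and 5 lower in Slike. Fewer features enter these sums by construction. With DESeq2 9 members were lower in Slike; the cause was not tested. Replicate numbers do not pair the samples (correlations of deviations between same-numbered libraries -0.011 to 0.013), and with the replicate number as a block 13 were higher and 24 lower in SX3, 13 and 15 in Slike, and 22 and 8 by the difference; each SX3 library correlated best with the ZS11 library of its number, and in Slike and Zlike this did not hold. No fold change of a member reversed and stayed called. Over single members, with RLE or upper-quartile scaling, DESeq2, no filter, all libraries in 1 fit, the replicate block or any 1 library left out, calls were lost by 3 members in SX3 against ZS11 and 8 in Slike against Zlike. With upper-quartile scaling the median log2 fold change of all genes in SX3 was 0.050, in place of -0.0079. At this depth, copies under about 1 CPM gave few counts, and 8 members could not be tested between SX3 and ZS11 and 11 between Slike and Zlike. Reads lost or divided between near-identical copies, also by a possible ZS11 reference, were not tested.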
